A study of Mus musculus with 7 samples.

Results

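Genes of neutrophil granules and other neutrophil markers were followed across 7 arrays of sorted colon macrophages. A list of 31 genes was set by name, and 30 of them had a probe set that the platform annotation gives to that gene alone, out of 22180 such genes in the table. Fpr1, a formyl peptide receptor gene, was not analysed here. The macrophages came from the lamina propria of mice with colitis, after 5 days of 5% dextran sulphate sodium (DSS), which injures the colon epithelium, and 3 days of plain water. They were sorted as MHC class II and CD64 positive, CD45 and CD11b positive and Ly6C negative, and the sort as labelled used no neutrophil marker. The control group, Rictorfl/fl LysM+/+ (3 arrays), carried floxed alleles of Rictor, a subunit gene of the kinase complex mTORC2, and no cre. The other group, Rictorfl/fl LysM+/cre (4 arrays), carried the same floxed alleles and cre recombinase in the LysM locus, which is active in macrophages, monocytes and neutrophils. No group had cre with intact Rictor, so the effects of Rictor loss and of cre cannot be told apart. The labels used here give no strain, age or sex and do not say whether animals were pooled. Each sample was run once, and p-values measure the spread between these samples.

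Neutrophils make their granules in sequence as they mature in the bone marrow. Genes of the azurophil granules are transcribed at the promyelocyte stage, genes of the specific granules later, and transcripts of both decline by the time a neutrophil enters tissue, where S100 proteins, chemoattractant receptors and stefins mark the mature cell. The 12 azurophil and specific granule genes are called early granule genes here, and the other 18 measured genes mature neutrophil genes. The 18 include Mmp8 and Lrg1, whose products also lie in neutrophil granules. Their place among the mature genes is uncertain, as is that of Cd177, Lcn2, Pglyrp1 and Chil1 among the early genes. Any contrast of the stages that includes these genes is uncertain too. Several members are also transcribed outside neutrophils, among them S100a8, S100a9, Csf3r and Fpr2 in monocytes and Lcn2 in colon epithelium. In sorted bulk samples, fewer cells of a type and less RNA per cell cannot be told apart.

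The values are log2 intensities, on which 1 unit is a doubling. Array medians over all probe sets lay between 5.16 and 5.22, and profiles correlated at 0.972 to 0.982 within genotypes and 0.968 to 0.977 between them. Rictor itself did not separate the genotypes, at 7.74 to 7.80 on the LysM+/+ arrays and 7.72 to 8.25 on the LysM+/cre arrays (limma, adjusted p = 0.749), and the labels do not say whether its probes lie in the floxed part. Genes of the sorted cell type were bright, such as Fcgr1, which encodes CD64, at 9.49 to 11.10, and H2-Ab1, an MHC class II gene, at 12.59 to 13.48. Ly6c2, one of the genes of the excluded antigen Ly6C, lay at 6.87 to 9.30. The arrays number 7, which limits the precision of every value.

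Many neutrophil genes differed widely between single arrays of the same genotype. The difference between the genotype means exceeded the SD within genotypes for 8 of the 30 genes (26.7%), against 38.0% of all genes. LysM+/cre array 3 was the highest of the 7 arrays for 19 of the 30 genes and LysM+/+ array 2 the lowest for 15, against 15.0% and 16.2% of all genes. Mmp8, a collagenase of neutrophil granules, spanned 43.9-fold between its lowest and highest arrays, S100a8 35.0-fold and Ngp 34.6-fold. Those spans held arrays of both genotypes, and the genotypes overlapped for all 30 genes. The azurophil granule genes had narrow spans, of 1.14-fold to 1.42-fold, but were not alone in this. Among the mature genes, Padi4 spanned 1.38-fold and Cxcr1 1.39-fold. Padi4 and Cxcr1, like Elane, Mpo and Ctsg, had means below the median gene in both genotypes, while Prtn3 did not. Whether the narrow spans go with granule stage or with dim signal was not tested.

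**Figure D1:**
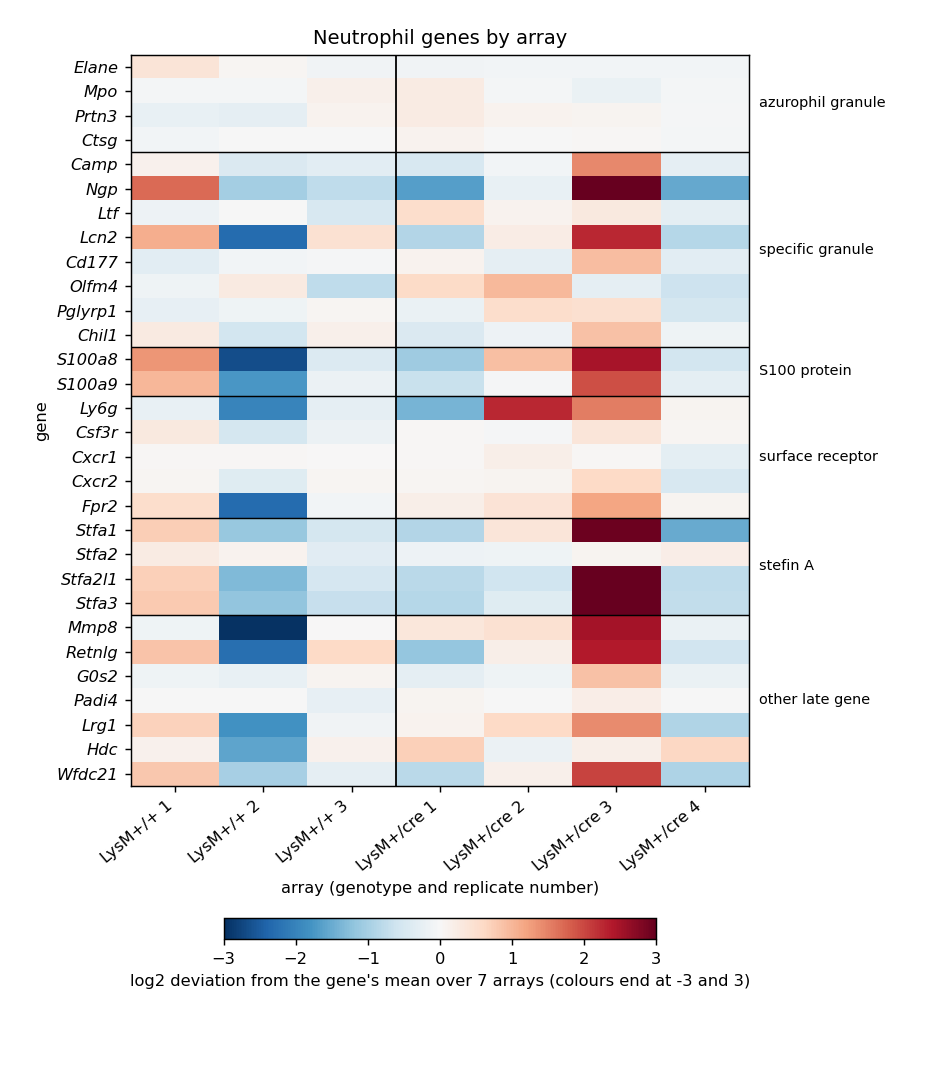
Deviation of each of the 30 genes (rows, grouped by role) from its own mean over the 7 arrays, on the log2 scale, for the 3 LysM+/+ and 4 LysM+/cre arrays (columns). LysM+/cre array 3 carries most of the dark red cells and LysM+/+ array 2 most of the dark blue ones, while the azurophil granule genes stay near white on all 7 arrays.

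The azurophil granule genes encode the enzymes of the oldest granule. Mpo, the myeloperoxidase gene, lay at 5.44, 5.43 and 5.65 on the LysM+/+ arrays and at 5.74, 5.44, 5.30 and 5.44 on the LysM+/cre arrays. Its lowest array was LysM+/cre array 3, where most other members were highest. Elane, the neutrophil elastase gene, lay at 5.32, 5.01 and 4.83 without cre and at 4.83, 4.86, 4.86 and 4.86 with cre. These values cover a narrow range, and 3 of the LysM+/cre arrays gave the same value. Prtn3, the proteinase 3 gene and neighbour of Elane, was lowest at 6.07 (LysM+/+ array 2) and highest at 6.58 (LysM+/cre array 1). Ctsg, the cathepsin G gene, ranged from 4.84 to 5.02. Elane, Mpo and Ctsg had group means below the median gene in both genotypes, so small differences among them may not be measurable.

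The window before the start of Elane is shown because azurophil genes share a motif there. A motif of the myeloid factor PU.1, GAGGAAGT, was found on either strand within 250 bases before the start in Elane, Mpo and Prtn3, or 3 of 4 azurophil genes, and in 7 of 30 members. It occurs in 2.44% of all 32851 windows of that length. A gene can have several windows, and a member was counted if any of them matched. The shares of all windows, here and below, count each window by itself, so the counts of members and these shares are unlike measures. A looser motif of C/EBP factors, TTNNGNAA, was found in 0 of 4 azurophil genes, in 6 of 8 specific granule genes and in 10 of 18 mature genes with a window (Fpr1 included), against 36.8% of all windows. A RUNX motif, TGTGGT, was found in 7 members (14% of all windows), among them the 4 stefin genes, and TATAAA in 7 (12.4%). Matches of different motifs overlapped in 0 members. These 4 motifs were picked after the counts of several others had been seen, and a match describes letters, not binding. Windows are from RefSeq on GRCm38.p6, written 5′ to 3′ along the gene, and 30 of the 31 listed genes had one. Capitals mark the PU.1 motif in the 150 bases before Elane, chr10:79886162-79886311, plus strand.
Elane: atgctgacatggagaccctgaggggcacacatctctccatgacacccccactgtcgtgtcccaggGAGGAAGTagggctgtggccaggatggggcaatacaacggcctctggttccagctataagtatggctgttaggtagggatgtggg

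Specific granule genes were spread widely. Ngp, which encodes a cathelicidin-related granule protein, lay at 7.49, 4.77 and 5.02 on the LysM+/+ arrays and at 4.13, 5.55, 9.24 and 4.23 on the LysM+/cre arrays. LysM+/cre array 3 was highest and LysM+/+ array 1 next, and the remaining arrays of both genotypes lay together at 4.13 to 5.55. Lcn2, the lipocalin that withholds bacterial siderophores, lay at 8.37, 4.97 and 7.73 without cre and at 6.40, 7.49, 9.54 and 6.43 with cre. The same arrays, LysM+/cre array 3 and LysM+/+ array 1, were its highest. Camp, the gene of the antimicrobial cathelicidin, lay at 3.86, 3.30 and 3.41 without cre and at 3.26, 3.65, 5.18 and 3.46 with cre. Camp thus stood out on LysM+/cre array 3 alone, although it lay below the median gene on all 7 arrays, and its span was 1.92 with that array and 0.61 without it. Cd177, a surface protein kept in specific granules, behaved likewise, at 7.27 on that array and 6.02 to 6.44 on the other 6. Chil1, a chitinase-like protein gene, was also highest there, at 5.91 against 4.48 to 5.30, and below the median gene on the other 6 arrays. In all, 11 of the 30 members had means below the median gene in both genotypes, among them Camp, Olfm4, Chil1, Cxcr1 and Padi4.

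The other 3 specific granule genes did not follow that order. Ltf, the lactoferrin gene, was lowest at 5.44 (LysM+/+ array 3) and highest at 6.44 (LysM+/cre array 1). Olfm4, which marks a subset of neutrophils and also intestinal epithelial cells, was highest on LysM+/cre array 2 at 5.98 and lowest on LysM+/+ array 3 at 4.25. Pglyrp1, a peptidoglycan recognition protein gene, ranged from 6.74 to 7.79 and was highest on LysM+/cre array 2. The 150 bases before Ngp are shown because they hold 3 C/EBP matches, set in capitals (chr9:110419658-110419807, plus strand).
Ngp: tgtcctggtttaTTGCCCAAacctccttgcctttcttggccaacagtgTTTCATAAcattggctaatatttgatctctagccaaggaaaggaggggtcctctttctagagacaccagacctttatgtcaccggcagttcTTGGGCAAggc

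S100a8 and S100a9 encode the subunits of calprotectin, the main cytosolic protein of neutrophils, and are neighbours in the genome. S100a8 lay at 8.75, 4.74 and 6.99 on the LysM+/+ arrays and at 6.35, 8.31, 9.87 and 6.87 on the LysM+/cre arrays. S100a9 lay at 8.15, 5.41 and 6.96 without cre and at 6.47, 7.11, 9.08 and 6.85 with cre. Both genes put the 7 arrays in the same order, with LysM+/cre array 3 first, LysM+/+ array 1 second and LysM+/+ array 2 last. The group means of S100a8 were 6.83 ± 2.01 (SD, n = 3) and 7.85 ± 1.58 (SD, n = 4), so the spread within each genotype exceeded the difference of 1.02 ± 1.15 (SE). The 250 bases before S100a8 (chr3:90668821-90669070, plus strand) are shown because this gene carries the PU.1 motif, here on the opposite strand and in capitals, as well as the C/EBP and TATA motifs.
S100a8: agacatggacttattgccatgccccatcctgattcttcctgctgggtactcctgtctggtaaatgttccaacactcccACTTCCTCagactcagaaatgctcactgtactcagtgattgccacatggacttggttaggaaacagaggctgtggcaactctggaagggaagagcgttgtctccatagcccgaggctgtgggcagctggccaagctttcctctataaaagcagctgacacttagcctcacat

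**Figure D2:**
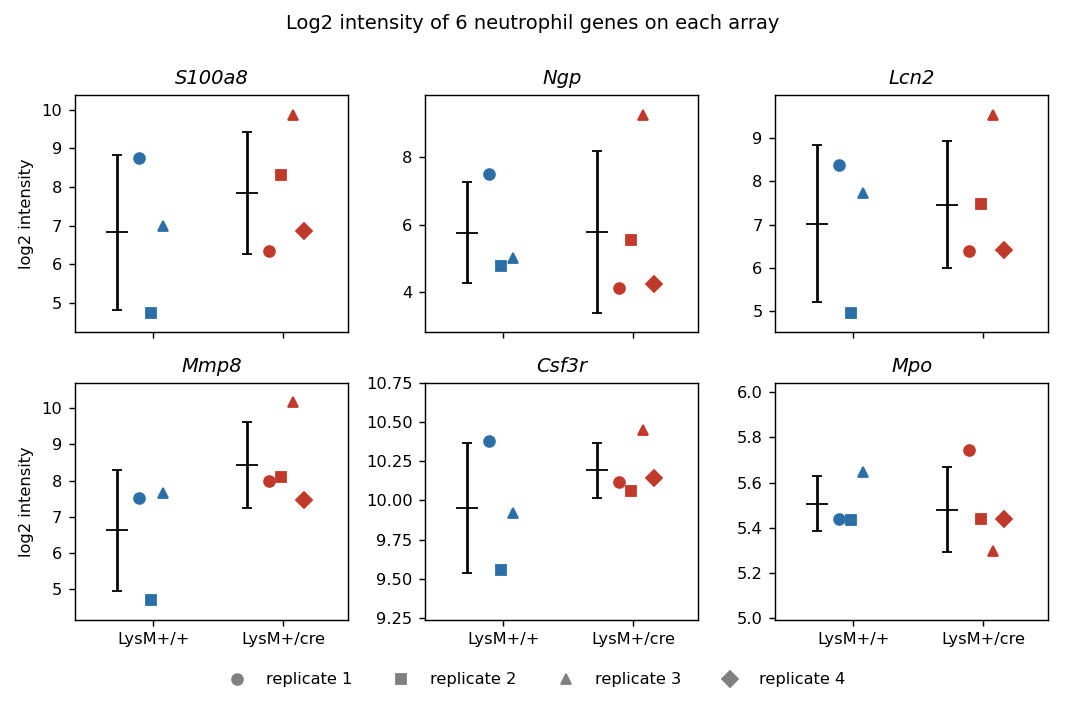
Log2 intensity of 6 genes on each array, each panel with its own axis range, with 1 point per array, the shape giving the replicate number, and black bars giving the mean and SD of each genotype (n = 3 and n = 4). S100a8, Ngp and Lcn2 are highest on LysM+/cre array 3 and next highest on LysM+/+ array 1, Mmp8 is low on LysM+/+ array 2 alone, and Csf3r and Mpo span 0.89 and 0.44.

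Receptor genes showed different orders of arrays. Ly6g, which encodes the antigen that defines mouse neutrophils, lay at 5.62, 3.86 and 5.58 without cre and at 4.45, 8.10, 7.39 and 5.92 with cre. Its highest array was LysM+/cre array 2, and LysM+/cre array 3 came second. Csf3r, the receptor for the growth factor G-CSF, lay at 10.38, 9.56 and 9.92 without cre and at 10.11, 10.06, 10.45 and 10.14 with cre. This receptor gene varied by less than 1 unit while S100a8 varied by 5.13. Fpr2, which senses formyl peptides and other danger signals, was low on 1 array, at 9.54, 6.71 and 8.93 without cre and 9.18, 9.42, 10.20 and 9.10 with cre. Cxcr2, the receptor for neutrophil-attracting CXC chemokines, ranged from 5.69 to 6.75 and was highest on LysM+/cre array 3. Cxcr1, its neighbour and relative, ranged from 4.76 to 5.23 and had the same value on 4 arrays.

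Stefins are inhibitors of cysteine proteases, and mice carry a cluster of closely related stefin A genes. Stfa1 lay at 6.48, 4.61 and 5.22 without cre and at 4.87, 6.10, 8.68 and 4.24 with cre. Stfa3 lay at 4.67, 2.70 and 3.19 without cre and at 3.01, 3.52, 6.93 and 3.13 with cre. Stfa2l1 lay at 5.21, 3.18 and 3.99 without cre and at 3.70, 3.90, 7.81 and 3.73 with cre. All 3 were highest on LysM+/cre array 3, and for Stfa2l1 the other LysM+/cre arrays lay between 3.70 and 3.90. Stfa2 had no such peak, at 3.90, 3.75 and 3.32 without cre and 3.50, 3.53, 3.74 and 3.87 with cre. Stfa2 and its relatives were dim on most arrays. Stfa2 lay below the median gene on all 7 arrays, Stfa2l1 and Stfa3 on 6 and Stfa1 on 4. Stfa2l1 and Stfa3 were above it on LysM+/cre array 3 alone. Their spans, 4.63 and 4.22, start from such dim values and are no exact measure of a change in RNA.

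The 120 bases before each stefin start are shown because they show how alike these copies are. Over 250 bases they were 80.4% to 89.4% identical in pairwise global alignments, and the closest pair was Stfa2 and Stfa2l1. S100a8 and S100a9 were 49.8% identical by the same measure. The transcripts of such copies may share probes, so the values of these 4 genes are uncertain as measures of single genes. They lie on the plus strand at chr16:36277028-36277147 (Stfa1) and chr16:36156691-36156810 (Stfa2l1), and on the minus strand at chr16:36408364-36408483 (Stfa2) and chr16:36455393-36455512 (Stfa3).
Stfa1: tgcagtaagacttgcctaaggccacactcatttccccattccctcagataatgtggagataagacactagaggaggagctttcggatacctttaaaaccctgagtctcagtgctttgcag
Stfa2: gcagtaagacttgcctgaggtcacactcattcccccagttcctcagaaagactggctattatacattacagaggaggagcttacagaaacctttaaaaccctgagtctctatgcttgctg
Stfa2l1: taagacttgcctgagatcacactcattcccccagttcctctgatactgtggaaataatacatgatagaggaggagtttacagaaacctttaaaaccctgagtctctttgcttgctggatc
Stfa3: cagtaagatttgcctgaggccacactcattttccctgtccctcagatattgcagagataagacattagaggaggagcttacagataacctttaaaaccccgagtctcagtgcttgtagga

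Among the other late genes, Mmp8 lay at 7.53, 4.70 and 7.66 without cre and at 7.99, 8.11, 10.16 and 7.45 with cre. Between LysM+/+ array 2 and LysM+/cre array 3, the remaining 5 arrays lay within 0.66 of each other. Retnlg, a resistin-like secreted protein of neutrophils, lay at 7.25, 4.13 and 6.98 without cre and at 5.23, 6.58, 8.77 and 5.83 with cre. Lrg1, a glycoprotein stored in neutrophil granules, was lowest on LysM+/+ array 2 (5.60) and highest on LysM+/cre array 3 (8.84). Wfdc21, a whey acidic protein family gene, spanned 6.34 to 9.37 between the same arrays. Hdc, the histamine-producing enzyme, is also transcribed in mast cells, basophils and immature myeloid cells, so its place among the mature genes is uncertain. It was low on LysM+/+ array 2 alone, at 5.67 against 7.09 to 7.97 on the other 6 arrays. G0s2, an inhibitor of the lipase ATGL, stood at 7.81 on LysM+/cre array 3 and at 6.67 to 7.01 elsewhere. Its second, dimmer probe set lay at 4.87 to 5.27 and showed no such peak. Padi4, the enzyme that citrullinates histones when neutrophils release chromatin traps, ranged only from 4.99 to 5.46.

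Set side by side, both stages ranked LysM+/cre array 3, LysM+/+ array 1, LysM+/cre array 2 and LysM+/+ array 3 highest, in that order. The remaining arrays came in different orders, and the sizes of the deviations differed. The mean deviation of the 18 mature genes from their own means was 0.43, -1.27 and -0.17 on the LysM+/+ arrays and -0.36, 0.23, 1.5 and -0.35 on the LysM+/cre arrays. For the 12 early granule genes it was 0.20, -0.38 and -0.13 without cre and -0.16, 0.087, 0.78 and -0.40 with cre. The early deviations were smaller, apart from LysM+/cre array 4, where both were low. Within the early genes, the specific granule genes ran from -0.57 to 1.19 and the azurophil granule genes from -0.067 to 0.12. The early minus mature difference was -0.72 on LysM+/cre array 3, where the mature genes were the further above their means, and 0.90 on LysM+/+ array 2, where they were the further below.

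**Figure D3:**
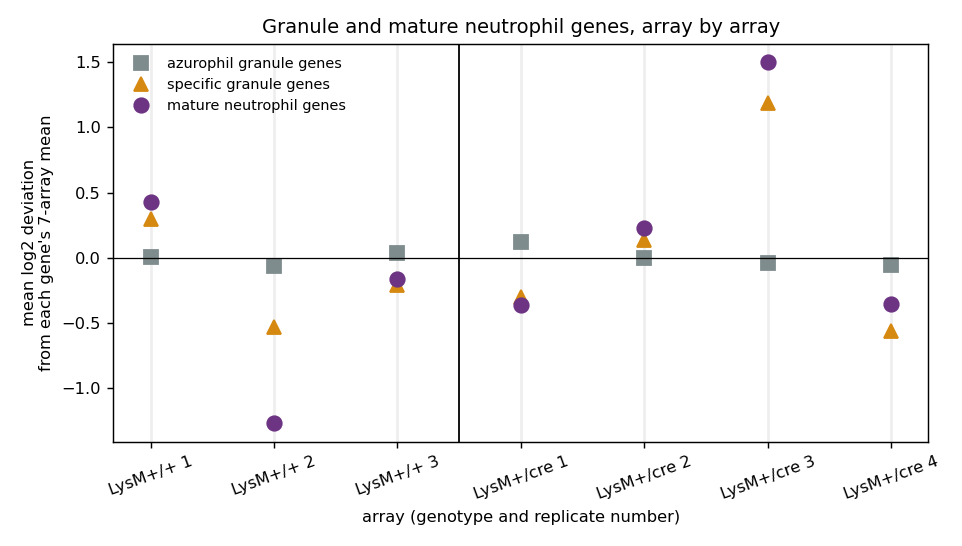
Mean log2 deviation of the 4 azurophil granule, 8 specific granule and 18 mature neutrophil genes from each gene's 7-array mean, for each array. Mature and specific granule genes lie highest on LysM+/cre array 3, at 1.5 and 1.19, and the azurophil granule genes stay between -0.067 and 0.12.

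The early minus mature difference had a mean of 0.24 ± 0.59 (SD, n = 3) without cre and of -0.18 ± 0.39 (SD, n = 4) with cre. The genotypes overlapped, at -0.23 to 0.90 without cre and -0.72 to 0.20 with cre. Their means differed by -0.41, which was -0.080 without LysM+/+ array 2, -0.23 without LysM+/cre array 3 and 0.10 without both arrays. As the members were chosen with results known, this difference was not tested.

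The spread within genotypes placed the members among the most variable genes on these arrays. The within-genotype SD lay in the top 5% of all genes for 18 of the 30 members. By stage this held for 0 of 4 azurophil, 6 of 8 specific granule and 12 of 18 mature genes. Ngp had an SD of 2.08 and S100a8 of 1.76, against a median of 0.15 over all genes. The members least spread were Ctsg (SD 0.064) and Padi4 (SD 0.12).

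The comparison of the genotypes asks whether these genes differed between mice with and without cre, all with floxed Rictor. No member passed the adjustment over all genes in limma, where 0 of 22180 genes passed (0%), and the smallest adjusted p of a member was 0.491. At an unadjusted p under 0.05, 0 of 30 members were higher and 0 lower, against 6.56% of all genes higher and 4.93% lower. The arrays of the genotypes were fully separated for 0 members, against 5.23% of all genes as higher and 3.56% as lower. The mean was higher with cre for 26 of 30 members and lower for 4, against 51.2% of all genes higher, with a median difference of 0.31 against 0.0044 over all genes. That direction depended on single arrays: 14 members changed sign without LysM+/cre array 3, 8 without LysM+/+ array 2 and 17 without both, a choice made after the data were seen.

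The members with the smallest unadjusted p-values were Prtn3 and Mmp8. Prtn3 differed by 0.22 ± 0.11 (SE, 95% interval -0.044 to 0.49, adjusted p = 0.491). Mmp8 differed by 1.79 ± 0.92 (SE, 95% interval -0.38 to 3.97, adjusted p = 0.496), and by 0.25 without both arrays named above. For Ly6g the difference was 1.45 ± 0.92 (SE), with an interval from -0.73 to 3.63. The interval of Ngp ran from -3.19 to 3.25 and that of S100a8 from -1.71 to 3.75, so several-fold differences in either direction were not detectable beside spreads within genotypes of 2.08 and 1.76 (SD). Intervals were narrower in Mpo (-0.30 to 0.25), Ctsg (-0.097 to 0.20), Stfa2 (-0.38 to 0.38) and Cxcr1 (-0.30 to 0.23). These genes lay below the median gene in both genotypes, where intensities vary little. Brighter genes also had narrower intervals than Ngp and S100a8, among them Prtn3 (given above) and Csf3r (-0.23 to 0.71).

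**Figure D4:**
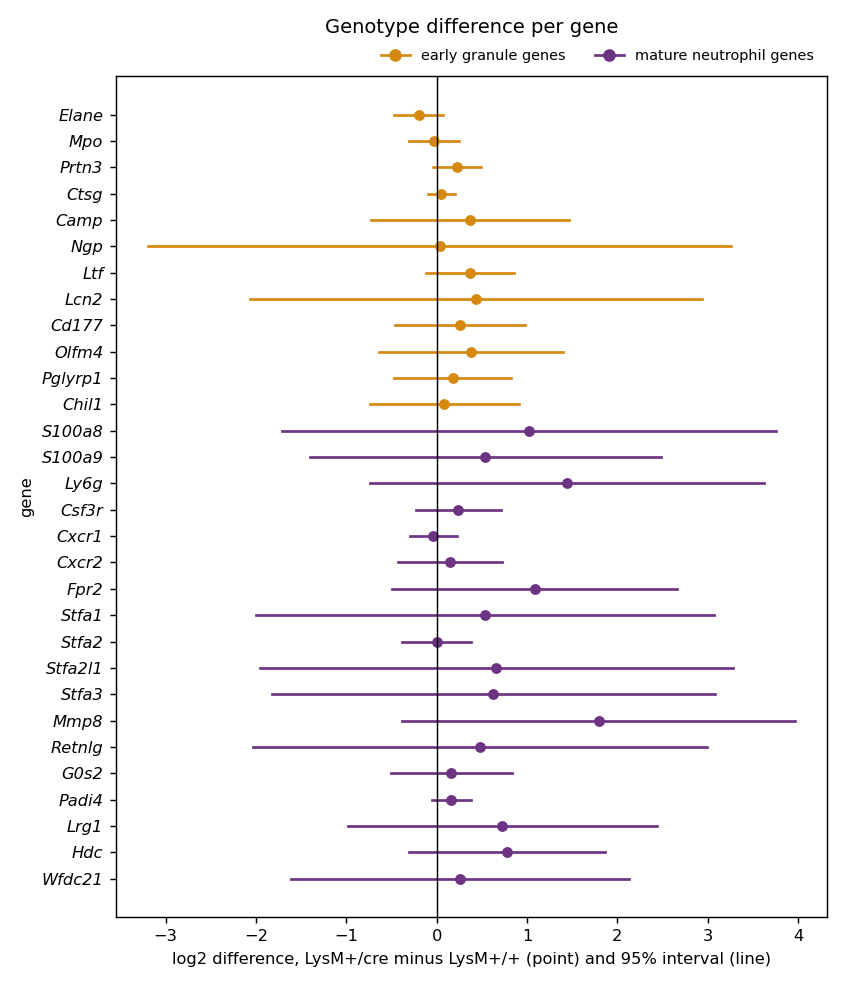
Log2 difference of each of the 30 genes, LysM+/cre minus LysM+/+, with the 95% interval of the limma fit, coloured by stage. All 30 intervals include 0, and the widest is that of Ngp, followed by S100a8, Stfa2l1, Stfa1, Retnlg and Lcn2.

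Neutrophil genes outside the list were read from another list of 26, of which 25 were measured. None passed the adjustment over all genes, and the median difference was 0.29. At an unadjusted p under 0.05 there were 5 higher and 0 lower, against 6.56% of all genes higher and 4.93% lower. Trem3 (1.76 ± 0.49 SE) and Trem1 (1.47 ± 0.50 SE), which encode activating receptors of myeloid cells, had adjusted p-values of 0.385 and 0.406. Trem1 lay at 9.73, 7.47 and 8.98 without cre and at 10.61, 9.91, 10.30 and 9.96 with cre. Here LysM+/cre array 3 did not stand out, and the genotypes did not overlap, although the difference did not pass. Mmp9, the gelatinase gene, differed by 1.35 ± 0.45 (SE) and Mxd1, a MAX-binding repressor, by 0.50 ± 0.16 (SE), with adjusted p-values of 0.406 and 0.398. C5ar1, the complement C5a receptor, was the fifth, at 0.18 ± 0.075 (SE), named after its value was seen. Of these 25 genes, 12 were highest on LysM+/cre array 3 and 16 lowest on LysM+/+ array 2, against 15.0% and 16.2% of all genes.

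Genes of signals that attract or sustain neutrophils were measured for 13 of 14. None passed, also at an unadjusted p under 0.05 (6.56% of all genes higher, 4.93% lower), and the median difference was 0.099. Lta4h, which makes leukotriene B4, differed by 0.42 ± 0.19 (SE) and Alox5, the 5-lipoxygenase gene upstream of it, by -1.30 ± 0.62 (SE). Il17a differed by 0.19 ± 0.096 (SE), and Ppbp, a platelet CXC chemokine, by -1.21 ± 0.83 (SE). The mean deviation of the list was highest on LysM+/cre array 3 (0.32) and lowest on LysM+/cre array 1 (-0.30).

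Markers of other cells differed between arrays as well. Monocyte genes, all 13 measured, had mean deviations of -0.15, -0.90 and -0.16 without cre and 0.46, 0.24, 0.25 and 0.26 with cre. LysM+/+ array 2 was lowest, as for the neutrophil genes, but LysM+/cre array 3 did not stand out. Their summed intensity was 9923 to 13815 on the LysM+/+ arrays and 15487 to 17885 on the LysM+/cre arrays. These sums weigh Thbs1 most, the brightest of the 13 on all 7 arrays, so they are no even measure of the list. Thbs1, named after its values were seen, differed by 0.54 ± 0.24 (SE), and its arrays overlapped between the genotypes. Of the 13 genes, 2 were higher at an unadjusted p under 0.05, Ly6c2 (1.09 ± 0.41 SE) and Clec4a1 (0.25 ± 0.099 SE). At the same level F13a1 was lower (-1.08 ± 0.39 SE). By that rule 6.56% of all genes were higher and 4.93% lower. Chil3, a chitinase-like gene of monocytes and neutrophils, stood at 9.56 on LysM+/cre array 3 against 3.34 to 7.06 elsewhere, a difference between the genotypes of 2.36 ± 1.02 (SE, adjusted p = 0.442).

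**Figure D5:**
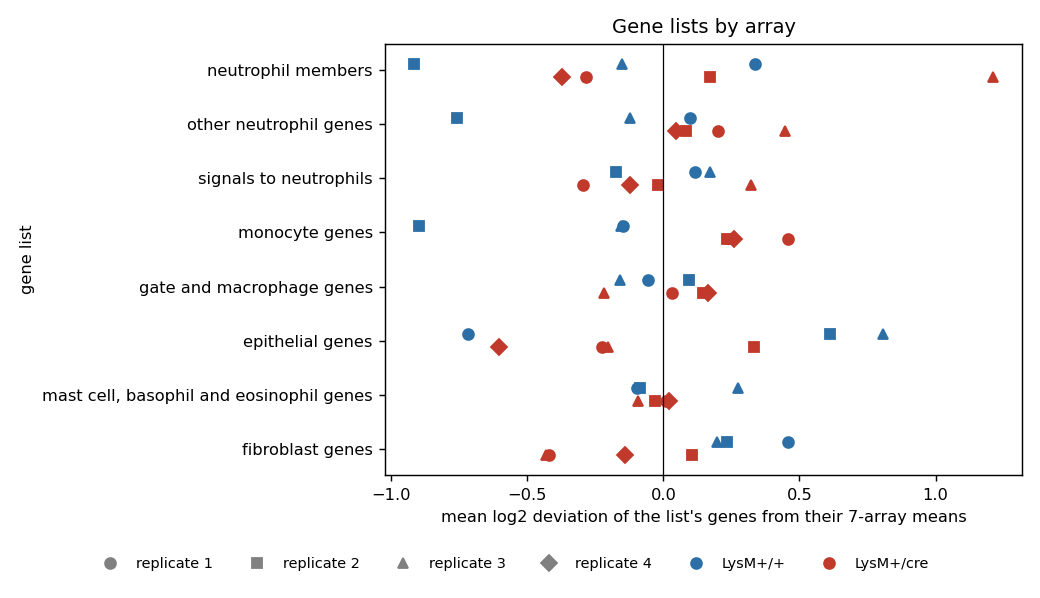
Mean log2 deviation of the genes of each list from their 7-array means, with 1 point per array, blue for LysM+/+ and red for LysM+/cre, and the shape giving the replicate number. The 30 neutrophil genes run from -0.91 to 1.21, a wider span than the other 7 lists. The points of the genotypes do not overlap for the monocyte genes, higher with cre, and the fibroblast genes, lower with cre.

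Macrophage and gate genes, 14 of 15 measured, had their lowest mean deviation on LysM+/cre array 3 (-0.22) and otherwise lay between -0.16 and 0.16. H2-Ab1 was at 12.59 on that array and at 13.11 to 13.48 on the other 6. Their summed intensity was 46074 to 52770 without cre and 42747 to 53092 with cre. In this list Fcgr1 (0.97 ± 0.26 SE) and Itgam, the gene of CD11b (0.53 ± 0.19 SE), were higher and Cd68 lower (-0.20 ± 0.079 SE) at an unadjusted p under 0.05, none past the adjustment. By that rule 6.56% of all genes were higher and 4.93% lower. Ptprc, the gene of CD45, differed by 0.25 ± 0.11 (SE).

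Epithelial genes, all 20 measured, had their lowest deviation, -0.72, on LysM+/+ array 1 and their highest, 0.81, on LysM+/+ array 3, and were at -0.20 on LysM+/cre array 3. Lcn2 and Olfm4, which epithelium can express, were at 8.37 and 4.88 on the array with the lowest epithelial deviation. The part of epithelium in the values of these and other members was not tested. The summed epithelial intensity was 2283 to 8664 without cre and 2875 to 6006 with cre. At an unadjusted p under 0.05, 0 were higher (6.56% of all genes) and 3 lower (4.93% of all genes). The 3 were Zg16 (-1.51 ± 0.37 SE), Car4 (-0.94 ± 0.33 SE) and Slc26a3 (-1.07 ± 0.41 SE). Guca2a differed by -1.16 ± 0.60 (SE).

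Mast cell, basophil and eosinophil genes, which bear on Hdc, had all 15 measured and 14 below the median gene in both genotypes. They had a median difference of 0.017. At an unadjusted p under 0.05, 1 was higher, Tpsb2 (0.30 ± 0.11 SE), against 6.56% of all genes, and 0 were lower, against 4.93%. Kit (-0.88 ± 0.45 SE), Il5ra (0.26 ± 0.17 SE) and Ccr3 (0.11 ± 0.084 SE) had unadjusted p-values of 0.0901, 0.167 and 0.226. Their summed intensity was 447 to 840 without cre and 363 to 500 with cre. Fibroblast genes, all 10 measured, had summed intensities of 3580 to 5440 without cre and 1786 to 2786 with cre. These sums weigh Dcn most, the brightest of the 10 on all 7 arrays. At an unadjusted p under 0.05, 4 were lower (4.93% of all genes) and 0 higher (6.56% of all genes). The 4 were Dcn (-1.38 ± 0.27 SE), Fbln1 (-0.60 ± 0.18 SE), Lum (-0.78 ± 0.25 SE) and Pdgfra (-0.88 ± 0.32 SE). Of the 10 genes, 8 had a lower mean with cre and 2 a higher one. The collagen genes, named after their values were seen, differed by 0.037 (Col1a1), -0.032 (Col1a2) and 0.17 (Col3a1). No marker of these lists is at 0, because an array gives each probe set a signal. The part of other cells in the values of the neutrophil genes was not tested.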

How the data were processed

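Each deposited value is the log2 intensity of 1 probe set. The series' design text says that the authors processed the arrays in Affymetrix Expression Console, and the submitters' processing notes also name Transcriptome Analysis Console. Versions, background correction and the summarising method, not given in the sources used here, remain unknown. Array medians were nearly equal, so a shift shared by all genes would not show. Log2 differences of dim probe sets are often compressed. Of all genes, 53.8% had an exactly equal value on at least 2 arrays, as had 8 of the 30 members.

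Probe sets with exactly 1 annotated symbol were used, 23521 of 41345, and the one with the highest mean was kept per gene, which left 22180 genes. All 30 members matched a RefSeq gene (GRCm38.p6) by Entrez identifier under the same symbol. The test of genotype was limma (version 3.58.1, under R 4.3.3), by lmFit with eBayes (two-sided, Benjamini-Hochberg over all genes at 0.05), with no covariate and no filter on dim probe sets. Stage and list values are mean deviations from each gene's 7-array mean. Summed intensities are sums of 2 to the power of the log2 values. Windows were aligned with Biopython 1.88, and figures drawn with matplotlib 3.10.9.

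Members and lists were chosen with earlier results of these data known. The genes named are all members, Rictor, Lyz2, 5 gate genes and up to 4 genes of smallest unadjusted p in each of 7 other lists. Exceptions chosen after their values were seen are C5ar1, Thbs1, Col1a1, Col1a2 and Col3a1. Lyz2, the cre insertion site, lay at 10.11 to 10.36 without cre and 9.77 to 10.24 with cre. In simulations (10 sets, each of 22180 genes, 200 of them changed) the fit recovered 74.5% of 2-fold and 94.9% of 4-fold changes, and 5.4% of calls were false. These shares are for changed genes drawn from the whole table, and 18 of the 30 members lay in its top 5% of within-genotype SD, so they do not give the recovery for the members. Same-numbered arrays correlated at -0.11, 0.12 and 0.10 in their deviations from the group means, so the replicate numbers were not taken as pairs. Alternatives were other scalings, probe set choices, variance models, array weights, a dim filter, a replicate block, other stage memberships and leaving out arrays.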

Additional observations from a re-analysis of the deposited data

Results flagged for a closer look

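On the 4 LysM+/cre arrays, 78 genes and list values were examined for 1 array standing apart. The measure was the gap to its nearest neighbour divided by the whole range. Of the 78, 9 exceeded the 95% critical value of Dixon's test for 4 samples, where chance gives about 1 in 20 for a single item. The items are not independent, as the stefin list holds Stfa2l1 and Stfa3 and the monocyte list Chil3. The count of 9 therefore cannot be read against that rate. LysM+/cre array 3 was the high one for Stfa2l1 (gap 0.95 of the range), Stfa3 (0.87), G0s2 (0.88), the stefin list (0.8295), Chil3 (0.996) and Rictor (0.86, at 8.25 against 7.72, 7.76 and 7.8 on the others). For Elane the ratio was 1.0, because 3 arrays had equal values and LysM+/cre array 1 lay lower, at 4.83 against 4.86. LysM+/cre array 1 was also apart for the monocyte list (0.89), at 0.46, and LysM+/cre array 2 for Slc26a3 (0.83), at 7.06.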

How the results depend on the processing

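No member passed the adjusted threshold in limma in the 18 other settings, where the lowest adjusted p of a member was 0.323, and no gene of the table did, except 2 genes when variances were not moderated. Members at an unadjusted p under 0.05 numbered 0 in the fit reported, 1 with array medians set equal (Prtn3), 3 with a replicate block (Ltf, Mmp8, Olfm4), 0 to 2 with 1 array left out, and 3, all lower, without both LysM+/+ array 2 and LysM+/cre array 3 (Chil1, Lcn2, Retnlg), a setting chosen after the data were seen. The mean difference of the mature genes was 0.59. It was 0.12 without LysM+/+ array 2, 0.17 without LysM+/cre array 3 and -0.29 without both, and it ranged from 0.12 to 0.97 with 1 array left out. That of the early genes was 0.18, and -0.054 to 0.34 with 1 array left out. It depended on membership, at 0.013 for the azurophil granule genes alone and 0.26 for the specific granule genes alone. The early minus mature difference was -0.41, ranged from -0.64 to -0.080 with 1 array left out and was 0.10 without both. Without Hdc, a setting also chosen after the data were seen, it was -0.40, and the mature difference was 0.58.

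Of 529 member values under the alternatives, 477 kept their sign and 52 did not, and 10 members kept it in all settings run. Part of that agreement was fixed in advance. The other variance models and the dim filter leave each difference as it was, and the other probe set choices can move only G0s2. With medians set equal Mpo was at 0.0095 and Stfa2 at 0.035, and after quantile normalization at 0.012 and 0.027. G0s2 was at -0.10 by its dimmer probe set, Ngp at -0.31 with array weights and Cxcr1 at 0.056 with the replicate block. Without both arrays the differences were Camp -0.18, Chil1 -0.45, Csf3r -0.043, Cxcr2 -0.16, Fpr2 -0.00099, G0s2 -0.17, Lcn2 -1.28, Lrg1 -0.35, Ngp -1.62, Retnlg -1.24, S100a8 -0.69, S100a9 -0.74, Stfa1 -0.78, Stfa2 0.022, Stfa2l1 -0.82, Stfa3 -0.71 and Wfdc21 -0.80. With 1 array left out, the ranges that crossed 0 were -0.067 to 0.57 for Camp, -0.012 to 0.40 for Cd177, -0.19 to 0.24 for Chil1, -0.10 to 0.056 for Cxcr1, -0.026 to 0.33 for Cxcr2, -0.11 to 0.27 for G0s2, -0.59 to 1.11 for Lcn2, -0.11 to 0.043 for Mpo, -1.12 to 0.90 for Ngp, -0.51 to 1.04 for Retnlg, -0.018 to 1.98 for S100a8, -0.18 to 1.19 for S100a9, -0.36 to 1.11 for Stfa1, -0.17 to 0.12 for Stfa2, -0.35 to 1.20 for Stfa2l1, -0.30 to 1.20 for Stfa3 and -0.38 to 0.74 for Wfdc21. The cause was not tested. With 1 array left out, genes at an unadjusted p under 0.05 numbered 3 to 9 among the other neutrophil genes, 0 to 5 among monocyte genes and 1 to 11 among epithelial genes. The filter on dim genes kept 19 members.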
